A study of Gasterosteus aculeatus with 18 samples.

Results

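A set of 150 genes was high in egg pools numbered 1 and 6 and low in pools numbered 3, 4 and 5 of an experiment on threespine stickleback (Gasterosteus aculeatus) embryos. They were taken from 16103 genes whose mean normalised read count over 18 pools was at least 11.41, out of 17253 genes in the deposited table. In 2360 of the 16103 genes the lowest of the 6 pools numbered 1 and 6 exceeded the highest of the 9 pools numbered 3, 4 and 5, with the mean of the 3 pools numbered 2 between the means of both sets. The 150 genes are those of the 2360 with the largest difference of set means on the log2(normalised read count + 1) scale, ranked from 1 to 150 by that difference. The genes were thus chosen by their values in these same 18 pools, and the difference between the sets of pools is described here without a test.

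Each pool held 10 wild-type eggs of a clutch, collected 72 hours after fertilization. The sample titles give 3 groups of 6 pools, numbered 1 to 6 in each group: control (0 µg/L cortisol), low (5 µg/L) and high (10 µg/L). The design text presents these doses as a baseline, a level induced by predators and a level beyond the physiological range. The labels do not say what a replicate number stands for, so whether pools 1 and 6 share a mother, a day or a handling step is not known.

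Cortisol is the main glucocorticoid of fish and reaches the egg from the mother. The early fish embryo first runs on messenger RNA that the mother placed in the egg and later on RNA of its own genome. The files name genes by Ensembl identifier only. None of the identifiers (0 of 17253) occurs in the RefSeq gene table used here, so no gene name, function or sequence could be attached to any of the 150 genes. The tissue could likewise not be checked against marker genes. In pools of whole eggs, a smaller share of cells of a type cannot be told apart from less RNA per cell.

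The pools differed in more than these genes. The sum of the deposited values was 8.36 to 9.14 M in pools numbered 1 and 6, 10.4 to 11.8 M in pools numbered 2 and 11.36 to 15.2 M in pools numbered 3, 4 and 5, with no overlap between pools 1 and 6 and the others. The 100 most abundant genes took 21.5% to 24.6% of the total in pools 1 and 6, 28.5% to 32.0% in pools 2 and 31.4% to 40.3% in pools 3, 4 and 5. Estimated sequencing depth, which covers only reads on the deposited genes, overlapped between the sets. It was 10.2 to 12.1 M reads in pools 1 and 6, 9.65 to 10.7 M in pools 2 and 10.6 to 12.4 M in pools 3, 4 and 5. The estimate was not clear for high pool 2 and low pool 4. The median log2 level of all genes tested lay between 7.43 and 7.45 in pools 1 and 6 and between 7.36 and 7.40 in pools 3, 4 and 5. The part of these differences between pools in the levels of the 150 genes was not tested.

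The 150 genes stepped down from set to set, in the direction that the rule had fixed. The median of all genes tested was nearly constant in the deposited values, which were already scaled. With every column brought to the same total, the median difference between the sets over all genes tested was 0.59 on the log2 scale. The mean over the 150 genes was 7.23 ± 0.20 (SD over 6 pools, log2 scale) in pools 1 and 6, 6.11 ± 0.26 (3 pools) in pools 2 and 4.95 ± 0.41 (9 pools) in pools 3, 4 and 5. As a normalised read count, the median of the 150 genes ranged from 102.5 to 152 in pools 1 and 6, from 48.5 to 69 in pools 2 and from 19 to 37.5 in pools 3, 4 and 5. Together the 150 genes made up 0.503% to 0.754% of the summed values in pools 1 and 6, 0.148% to 0.240% in pools 2 and 0.0636% to 0.142% in pools 3, 4 and 5.

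**Figure D1:**
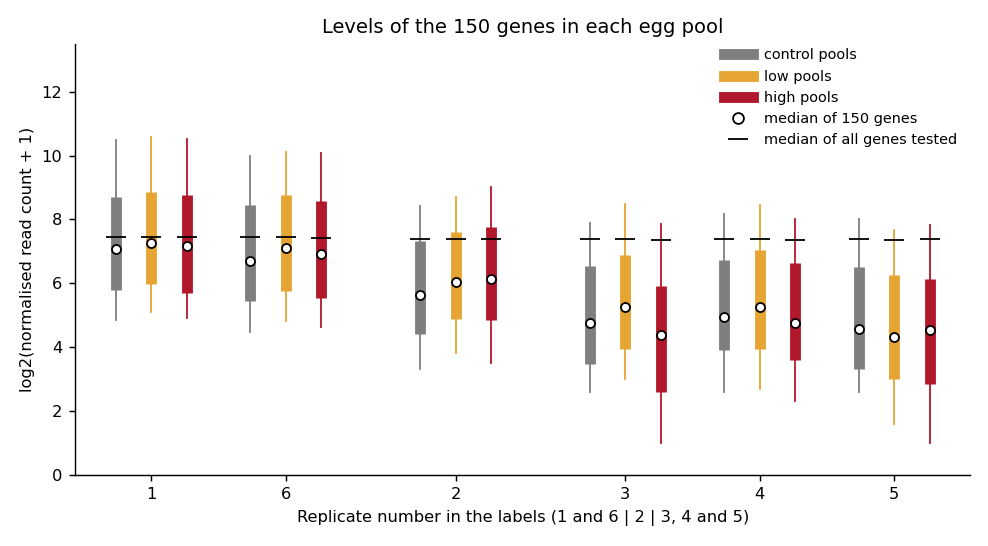
Levels of the 150 genes in each of the 18 pools, as log2(normalised read count + 1), ordered by replicate number on the x axis and by dose within a number; thick bars span the middle quartiles, thin lines the 5th to 95th percentile, circles the median and dashes the median of all genes tested. The dashes stay between 7.36 and 7.45 while the circles lie at 6.69 to 7.26 in pools 1 and 6 and at 4.32 to 5.27 in pools 3, 4 and 5.

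The difference between pools 1 and 6 and pools 3, 4 and 5 had a median of 2.19 over the 150 genes, a 4.58-fold difference on the log2(normalised read count + 1) scale. It ranged from 1.94 (3.83-fold) to 4.38 (20.9-fold) and exceeded 3 in 5 genes and 2.5 in 30 genes. The gene at rank 150 stood at 1.94 and the next gene, just outside, at 1.93. The other 2210 genes that met the rule had a median difference of 0.997, down to 0.251, so the 150 genes are the upper end of a continuous range and not a separate class. The mirrored pattern, with pools 1 and 6 below pools 3, 4 and 5, was met by 2147 genes. The rule was met by 14.7% of all genes tested and the mirrored rule by 13.3%.

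**Figure D2:**
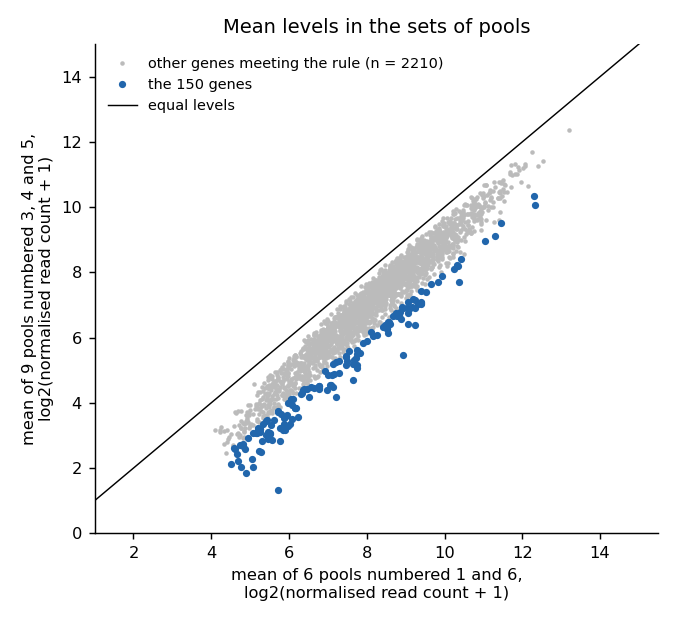
Mean level of each gene in the 6 pools numbered 1 and 6 (x axis) against its mean level in the 9 pools numbered 3, 4 and 5 (y axis), both as log2(normalised read count + 1); grey points are the other 2210 genes that met the rule, blue points the 150 genes. The blue points form the lower edge of the cloud, without a gap to the grey ones, and 1 gene lies well apart from the rest at 4.38 below the line of equal levels.

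The gene that stood furthest apart, ENSGACG00000014713 at rank 1, was close to absent outside pools 1 and 6. Its normalised read count was 36 to 82 (median 48) in pools 1 and 6 and 0 to 5 (median 1) in pools 3, 4 and 5. The control, low and high pools numbered 2 had 2, 9 and 3. It was the 1 gene of the 150 with a value of 5 or less in all 9 pools numbered 3, 4 and 5. Its pools numbered 2 thus lay near the low set, at 0.219 of the way from the low to the high set.

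ENSGACG00000002716 at rank 2 had more reads and a different middle. It had 349 to 623 (median 487) in pools 1 and 6 and 21 to 80 (median 36) in pools 3, 4 and 5, an 11.2-fold difference. Pools numbered 2 had 161 in control, 194 in low and 264 in high, clear of both sets. Number 1 exceeded number 6 in this gene by 0.51 on the log2 scale, with 518, 619 and 623 in the control, low and high pools of number 1 against 349, 456 and 434 in those of number 6.

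At the median the 150 genes had fewer reads than all genes tested. The median of their mean normalised read counts was 69.8, against 177 over all genes tested, and 65 of the 150 (43.3%) had a mean under 50, against 20.8% of all genes tested. Over the other 2210 genes that met the rule the same median was 206, above that of all genes tested. The lower read numbers were thus seen in the 150 genes with the largest differences, not in the other genes that met the rule. These are read numbers that were not divided by gene length. In pools 3, 4 and 5 between 3 and 40 of the 150 genes had a value of 5 or less, while in pools 1 and 6 none did and the lowest value of any of the 150 genes was 12. Of the 150 genes 92 exceeded 5 in every pool, and 9 were at 0 in at least 1 pool.

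The pattern was also present in abundant genes. Of the 150 genes 11 had a mean over 500 (7.33%, against 23.0% of all genes tested). Their median difference between the sets was 2.09, against 2.27 in the 65 genes with a mean under 50. The 150 genes were kept for differences from 1.94 upwards, so the nearness of these medians is largely set by the choice. The gene at rank 67 had 4622 to 5680 reads (median 5148) in pools 1 and 6 and 790 to 1662 (median 1101) in pools 3, 4 and 5. The gene at rank 142, with the highest mean of the 150, had 4358 to 5566 and 911 to 1866. In both genes the 3 pools numbered 2 lay nearer to pools 3, 4 and 5, at 1164 to 1859 in rank 67 and 1041 to 1911 in rank 142, within or just above the range of that set. The gene at rank 16 combined a high count with a 6.36-fold difference, at 1010 to 1900 in pools 1 and 6 and 111 to 346 in pools 3, 4 and 5.

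The width of the gap between the sets varied. The lowest of the 6 pools lay above the highest of the 9 by a median of 1.09 on the log2 scale, by more than 1 in 88 genes, and by as little as 0.06 at rank 138, where the values were 24 and 23. Control pool 6 was the lowest of the 6 pools in 76 genes and high pool 6 in 42. On the other side, low pool 4 was the highest of the 9 pools in 62 genes and low pool 3 in 45, and high pool 3 was the lowest in 72 (ties counted for each pool). The limits of the gap were thus set mostly by a few pools. How often these pools were extreme over other genes was not counted. Among the other 2210 genes that met the rule, the median level of the 6 pools was also lowest in control pool 6 (8.04). That of the 9 pools was highest in low pools 3 and 4 (7.42 in each), but lowest in low pool 5 (6.99) and not in high pool 3 (7.09). High pool 3 also had more near-empty genes (5 reads or fewer, over the whole table) than the other 17 pools, 1220 compared with 358 to 802.

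Within the sets the replicate numbers followed a common order in these genes, which the rule did not ask for directly. Ranking by the largest set difference can favour such an order, and the shares over all genes tested were not counted. The median level of the other 2210 genes that met the rule was also higher in number 1 than in number 6. It was 8.21, 8.29 and 8.28 in the control, low and high pools of number 1, against 8.04, 8.13 and 8.10 in those of number 6. Number 1 was above number 6 in 127 of the 150 genes, with a median difference of 0.25 on the log2 scale. The widest such difference was at rank 32, with 30, 47 and 30 in the control, low and high pools of number 1 and 12, 28 and 15 in those of number 6. The lowest mean was that of number 5 in 88 genes, of number 3 in 52 and of number 4 in 10. The order 1, 6, 2, 4, 3, 5 from high to low was the most frequent and was seen in 47 genes, and 1, 6, 2, 4, 5, 3 in 37. The mean of number 2 lay between the means of all other numbers of both sets in 139 genes. The rule had already placed that mean between the means of the sets. The middle place of number 2, also in the orders above, is thus largely fixed by the choice.

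Within a set, pools 3, 4 and 5 were the more variable ones. The SD of the 9 pools numbered 3, 4 and 5 had a median of 0.60 over the 150 genes, against 0.28 for the 6 pools numbered 1 and 6, and it was the larger in 145 genes. Over all genes tested the medians were 0.30 and 0.21, and the SD of pools 3, 4 and 5 was the larger in 76.7%. Part of that spread lay between pools of the same number. The SD of the 3 pools of a number had a median over the 150 genes of 0.58 for number 3, 0.40 for number 5 and 0.30 for number 4. It was 0.34 for number 2, 0.18 for number 1 and 0.21 for number 6. For all genes tested the same median was 0.14, 0.21, 0.21, 0.16, 0.22 and 0.14 in numbers 1 to 6. In pools 3, 4 and 5 between 3 and 40 of the 150 genes had a value of 5 or less, and the part of low values in this spread was not tested.

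Pools numbered 2 took positions over nearly the whole distance that the rule allows. The rule kept only genes with the mean of number 2 between the means of the sets, so positions outside that distance were excluded beforehand. Without this condition 3008 genes had pools 1 and 6 above pools 3, 4 and 5, against 2360 with it. Their position, with 0 at the mean of pools 3, 4 and 5 and 1 at the mean of pools 1 and 6, had a median of 0.50 and ranged from 0.0221 at rank 48 to 0.980 at rank 130. They were nearer to pools 1 and 6 in 75 genes and nearer to pools 3, 4 and 5 in the other 75. At rank 130 the pools numbered 2 had 28, 46 and 43 in control, low and high, inside or just below the 32 to 49 of pools 1 and 6. At rank 48 they had 6, 18 and 24, within the 5 to 24 of pools 3, 4 and 5. All 3 pools were clear of both sets in 49 genes. By dose the median position was 0.40 for the control pool, 0.54 for the low pool and 0.59 for the high pool, and the control pool was the lowest of the 3 in 118 genes. Each dose is 1 pool here, and the share over all genes tested was not counted. The other 2210 genes that met the rule also had their lowest median level in control pool 2, at 7.43 against 7.64 in low and 7.67 in high.

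The dose groups hold the same replicate numbers, so the dose contrasts are balanced over them and were not the criterion of the rule. The choice still used the same pools, and a rule that keeps the sets apart limits the spread within each set. The main fit compared the dose groups in limma across all 16103 genes without the replicate number. An alternative added the number as a block. For the 150 genes the spread between numbers is large by their choice, and the median standard error of a fold change was 0.63 without and 0.20 with the block. Without the block limma called 0 of the 150 genes in any dose contrast at an adjusted p under 0.05, where 0% of all genes were called. At an unadjusted p under 0.05 it had 1 of the 150 genes, lower in high than in control pools, where 0.534% of all genes tested were lower and 0.447% higher. In low against control it had none (0.155% of all genes higher and 0.329% lower), nor in high against low (1.11% higher and 1.28% lower). The sampling of separate clutches is not stated for any group, so p-values measure the spread between these pools.

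High pools were lower than low pools in most of the 150 genes. The median difference of group means was -0.32 on the log2 scale (SD of 0.39 over the medians of the 6 numbers), with 132 of the 150 genes below 0, against 51.4% of all genes tested, whose median was -0.01. Read by number, the median over the 150 genes was 142 in the high and 152 in the low pool of number 1, 119.5 and 137.5 in number 6, 69 and 65.5 in number 2, 20 and 37.5 in number 3, 26 and 37 in number 4, and 22 and 19 in number 5. The median of the differences was -1 in number 3, -0.48 in number 4, -0.19 in number 6, -0.18 in number 1, -0.05 in number 5 and 0.10 in number 2. In numbers 1, 3, 4 and 6 at least 107 of the 150 genes each were thus lower in the high pool. Of all genes tested 49.4%, 50.2%, 48.6% and 50.7% were lower there. Number 5 was divided, with 79 genes lower in the high pool and 64 higher, against 49.5% and 49.0% of all genes tested. Each count rests on 1 pair of pools. In number 2 more genes were higher in the high pool (85) than lower (63), against 49.0% and 49.2% of all genes tested.

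Of the 150 genes, 22 were lower in the high pool in 6 of 6 numbers and none was higher in 6 of 6, against 6.41% and 7.02% of all genes tested. With the replicate block limma called 14 of the 150 genes lower in high pools and 0 higher at an adjusted p under 0.05, against 3.73% and 4.35% of all genes tested. At an unadjusted p under 0.05 there were 55 lower and 0 higher genes, against 12.0% and 11.8%. The fold changes of the 14 genes ran from -1.52 to -0.44 on the log2 scale (median -0.61). In 10 of the 14 the control mean of the normalised read counts, not logged, lay between the high and the low mean. Means on the log2 scale can have another order. The 14 genes are 9.33% of the 150, against 8.07% of all genes called in either direction, so their share lay near that of all genes. Both shares depended on single pools. Without high pool 3, high pool 4, low pool 3 or low pool 6 the count of 14 was 2, where 4.01%, 6.67%, 4.3% and 3.93% of all genes were called. Without low pool 1 it was 3 and without high pool 5 it was 4, where 4.07% of all genes were called in each fit. Without low pool 4 it was 6, where 8.15% of all genes were called. Without low pool 2, control pool 3 or control pool 6 it was 8, where 7.27%, 7.41% and 7.18% were called, and without control pool 4 it was 9, where 6.97% were called. Without high pool 2 it was 30, where 9.4% of all genes were called. It was 3 without the variance trend, where 5.32% of all genes were called, and 0 without high pools 3 and 5 together, where 1.42% were called.

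ENSGACG00000017947, at rank 55, had the smallest p among these genes. It had 440, 220, 58, 106, 86 and 455 reads in high pools 1 to 6, against 721, 273, 154, 164, 95 and 631 in low pools 1 to 6, with 537, 164, 104, 127, 107 and 484 in control pools 1 to 6. The high pool was below the low pool in 6 of 6 numbers, and the groups overlapped because of the differences between numbers. The log2 fold change was -0.61 ± 0.13 (SE) with the block, at an adjusted p of 0.00974 from limma, and the adjusted p without the block was 1.

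ENSGACG00000012138, at rank 12, differed between doses by the most of the 14. It had 48, 50, 3, 7, 1 and 50 reads in high pools 1 to 6, against 133, 76, 23, 12, 10 and 127 in low pools 1 to 6, and 25, 33, 15, 13, 7 and 40 in control pools 1 to 6. The low pools of numbers 1, 2 and 6 thus stood above every other pool. The log2 fold change between high and low was -1.52 ± 0.34 (SE) with the block, at an adjusted p of 0.0117 from limma, against 1 without it.

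The genes with the smallest p in the other direction were not called. ENSGACG00000016700 averaged 170 ± 123 (SD, n = 6) in high pools and 147 ± 117 in low pools. ENSGACG00000015193 averaged 746 ± 528 in high pools and 696 ± 582 in low pools. Each was higher in the high pool in 4 of 6 numbers, with adjusted p from limma of 0.231 and 0.313 with the block and 1 without it. Both differences were below 0 in the fit without high pool 1 or without low pool 5. Those fits had no block, and leaving out 1 pool ends the balance of the numbers between doses. The change of sign can therefore not be told apart from the difference between numbers.

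**Figure D3:**
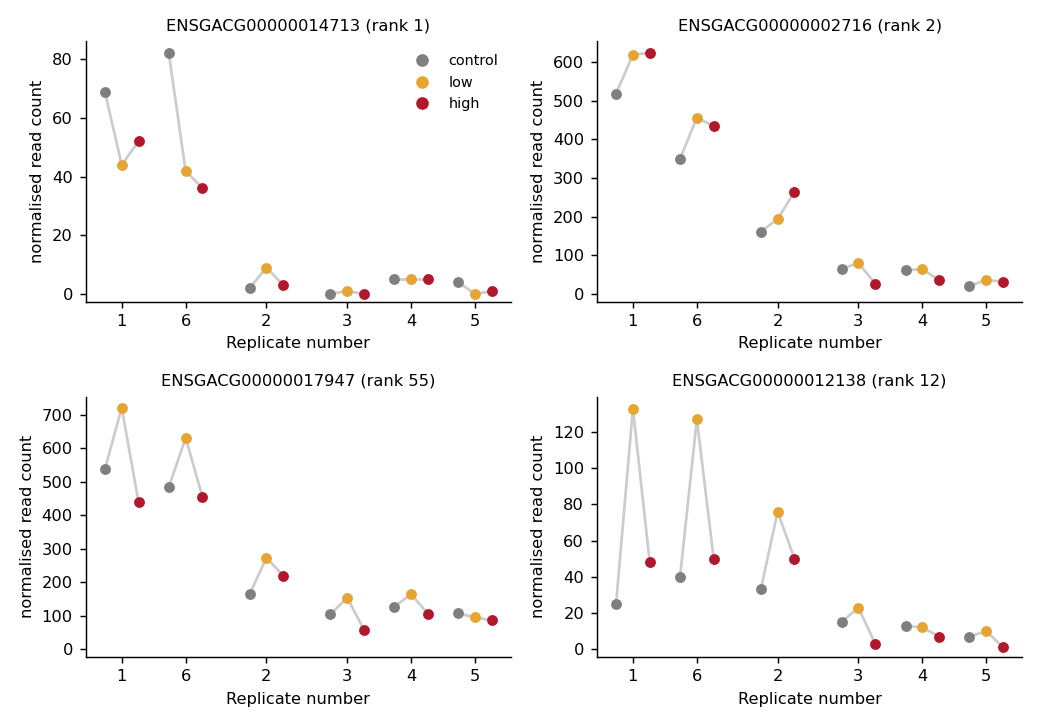
Normalised read counts of 4 of the 150 genes in the 18 pools, by replicate number (x axis) and dose (colour), with grey lines joining the pools of a number. The 2 upper genes have the largest difference between the sets of pools and the 2 lower ones the smallest p between high and low pools; in the lower right gene the low pools of numbers 1 and 6 reach 133 and 127, against 48 and 50 in the high pools.

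Low pools were higher than control pools in 132 of the 150 genes, against 50.6% of all genes tested. The median difference was 0.22 on the log2 scale (SD of 0.28 over the 6 numbers), against 0.002 over all genes tested. Number by number the median was 0.51 in number 3, 0.42 in number 2, 0.30 in number 6, 0.22 in number 4 and 0.16 in number 1, and -0.28 in number 5. Number 5 ran against the others, with 111 genes lower and 31 higher in the low pool, against 48.9% and 49.0% of all genes tested. None of the 150 genes was called with the block, where 0% of all genes were called, and at an unadjusted p under 0.05 there were 29 higher and 1 lower, against 4.66% and 6.41% of all genes tested. Without number 5 the block gave 6 higher genes of the 150 (4%), where 2.31% of all genes were called. With the column total as a covariate in the blocked fit the median low minus control difference of the 150 genes was 0.06, with 58 below 0. With the count of near-empty genes as the covariate it was 0.05, with 66 below 0, and 0 genes were called under each. Both covariates were computed from the same values, so these fits cannot tell dose apart from them.

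ENSGACG00000005032, at rank 63, had the smallest p of the contrast between low and control. It had 183, 70, 56, 29, 26 and 158 reads in low pools 1 to 6, against 129, 31, 24, 28, 14 and 110 in control pools 1 to 6, and was above control in 6 of 6 numbers. The log2 fold change was 0.71 ± 0.15 (SE) with the block, at an adjusted p of 0.108 from limma. ENSGACG00000020773, at rank 118, averaged 486 ± 327 (SD, n = 6) in low and 396 ± 277 in control pools, at an adjusted p of 0.235 from limma. In the other direction ENSGACG00000017581 averaged 17.3 ± 19.8 in low and 20.2 ± 18.9 in control pools, and ENSGACG00000001925 14 ± 7.69 in low and 25.7 ± 20.6 in control pools, with adjusted p from limma of 0.383 and 0.517 with the block.

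Against control pools, the high pools of the 6 numbers did not share a direction. The median difference was -0.13 on the log2 scale (SD of 0.36 over the 6 numbers), with 98 of the 150 genes below 0, against 52.0% of all genes tested. The medians were 0.52 in number 2, 0.09 in number 6 and 0.004 in number 1, and -0.19, -0.29 and -0.51 in numbers 4, 5 and 3. Without number 3 the median was 0.004. With the count of near-empty genes as a covariate in the blocked fit it was 0.09, with 51 of the 150 genes below 0, and with the column total -0.07, with 88 below 0. The covariates come from the same values as the levels, so dose and covariate cannot be told apart in these fits. With the block limma called 0 of the 150 genes, against 0.727% of all genes higher and 0.441% lower, and at an unadjusted p under 0.05 it had 5 higher and 7 lower, against 7.86% and 8.58%.

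ENSGACG00000001925, at rank 123, came closest. It had 23, 9, 5, 0, 7 and 23 reads in high pools 1 to 6, against 62, 15, 13, 13, 12 and 39 in control pools 1 to 6, lower in 6 of 6 numbers. The log2 fold change was -1.42 ± 0.37 (SE) with the block, at an adjusted p of 0.0645 from limma. ENSGACG00000020840 averaged 12.8 ± 13.0 (SD, n = 6) in high and 18.2 ± 15.9 in control pools, ENSGACG00000005032 72.7 ± 52.6 and 56 ± 49.9, and ENSGACG00000009037 63.8 ± 49.3 and 40.2 ± 30.8, with adjusted p from limma of 0.210, 0.102 and 0.108 with the block.

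**Figure D4:**
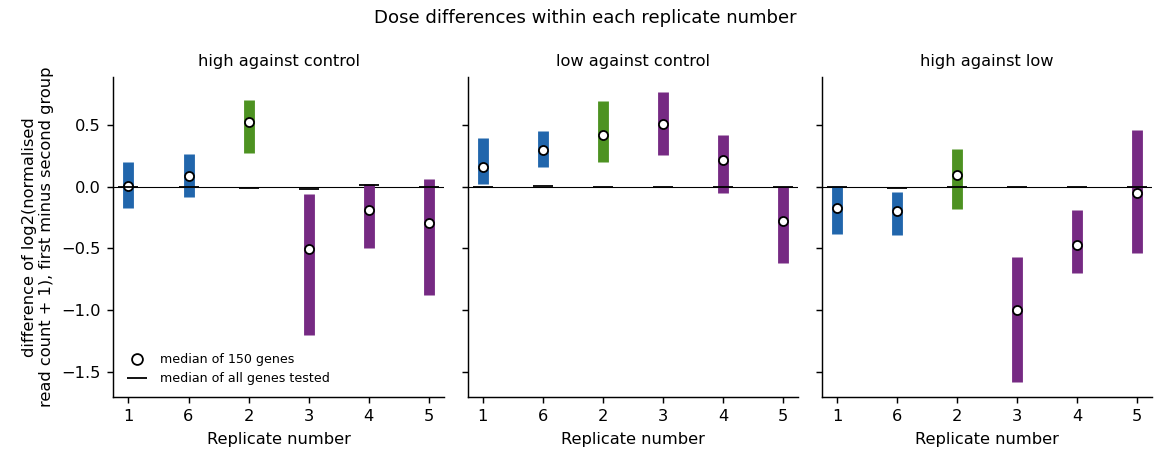
Difference between dose groups within each replicate number (x axis), as log2(normalised read count + 1) of the first minus the second group named above each panel; circles are medians and bars the middle quartiles of the 150 genes, dashes the median of all genes tested. Medians of high against low lie below 0 in 5 of 6 numbers, down to -1 in number 3, and those of low against control above 0 in 5 of 6 numbers, with number 5 at -0.28.

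The distance between pools 1 and 6 and pools 3, 4 and 5 was also taken at each dose. Its median over the 150 genes was 2.01 for control pools, 2.13 for low pools and 2.44 for high pools. The middle quartiles overlapped, at 1.84 to 2.26 for control, 1.97 to 2.34 for low and 2.22 to 2.76 for high pools. The rule used these values, so they are given as a description. The change between low and high was uneven over the ranks, with a median high minus low difference of -0.44 in the first 50 ranks, -0.26 in the second 50 and -0.31 in the last 50. Of the 14 called genes 7, 6 and 1 lay in these classes. The ranks were computed from the same low and high pools. Neither the medians by rank nor this split is therefore independent of the choice of genes. By abundance the median difference was -0.38 in genes with a mean under 50, -0.32 in those from 50 to 500 and -0.16 in the 11 genes over 500. In the 92 genes above 5 in every pool it was -0.30, with 84 of 92 below 0.

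The other 2210 genes that met the rule had a median high minus low difference of -0.06 and a median low minus control difference of 0.09. The 150 genes with the largest difference in the mirrored direction had medians of 0.20 for high minus low and -0.17 for low minus control. The contrasts share their control or low pools, and the lists were set apart by the same pools, so these medians are given as a description.

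The level of the 150 genes also went with the sum of the deposited values inside the replicate numbers. In 5 of 6 numbers the 3 pools ranked by their mean level over the 150 genes in the exact reverse of their column totals, and in number 2 the low and high pools were close in both (10.40 and 10.45 M). In number 3, for example, the mean level over the 150 genes was 4.97 for control, 5.47 for low and 4.29 for high, at totals of 13.3, 11.36 and 13.9 M. High pools had a larger total, a larger share of the 100 most abundant genes and more near-empty genes than low pools in 6 of 6 numbers. For estimated depth the reverse order of all 3 pools was seen in 0 of 6 numbers. Depth still differed between these doses, as the high pool had the larger estimate in only 1 of 6 numbers. The estimate was not clear for high pool 2 and low pool 4. The part of depth in the high minus low difference was not tested. With the column total as a covariate in the blocked fit the median high minus low difference of the 150 genes was -0.12, with 1 gene called, where 4.39% of all genes were called. With the count of near-empty genes as the covariate it was 0.04, with 64 of the 150 genes below 0 and 0 called, where 0.224% of all genes were called.

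**Figure D5:**
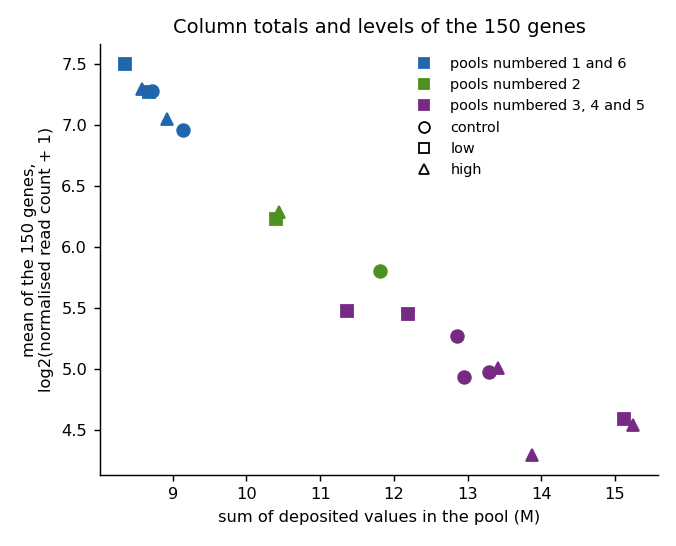
Mean level of the 150 genes as log2(normalised read count + 1) (y axis) against the sum of the deposited values (x axis, M) for the 18 pools, coloured by set of replicate numbers, with symbols for dose. Pools 1 and 6 lie at totals of 8.36 to 9.14 M and levels of 6.96 to 7.50, pools 3, 4 and 5 at 11.36 to 15.2 M and 4.29 to 5.47, and the pools numbered 2 between them in level.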

How the data were processed

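RNA of 18 egg pools was sequenced, and the authors deposited 1 table with 1 column per pool. Its values are treated as scores: the deposited file calls them normalized counts, and they are whole numbers with near-equal quartiles and unequal totals, so the authors had scaled the counts and then rounded them. The submitters' processing notes list, without their roles, edgeR, HTSeq, the aligners Bowtie2 (2.1.0) and TopHat2 (2.0.8), Cufflinks (2.2.0), Cuffdiff, TopHat and FastQC. For the genome build, annotation and scaling method, nothing is given in the sources used here. All 17253 genes exceed 5 in at least 2 pools, so genes with low counts had been removed. Depth was estimated by dividing each column total by the scale factor that best explained which whole numbers under 300 occur. The factor was clear in 16 of 18 columns (log-likelihood at least 40 above others), at least 99.3% of those values were reachable, and the largest error on 7 simulated columns was 0.0001. The simulated columns were built with the same rounding model that the estimate assumes. None had a factor as near to 1 as the unclear columns, high pool 2 (0.998) and low pool 4 (0.99), so the simulation does not cover these. Reads were not recovered, and no count model was fitted.

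Values were taken as log2(value + 1), a scale that understates changes of genes with low values. The 150 genes all pass the filter of 11.41 by their definition. Dose contrasts were fitted over 16103 genes with limma 3.58.1 under R 4.3.3, using a mean-variance trend and Benjamini-Hochberg adjustment over all genes. The fit and the rule were tested on simulated data. Plots used Python 3.11.15 and matplotlib 3.10.9. The 150 genes, the lists and the tests were chosen with earlier results of these data known. Genes printed by identifier are ranks 1 and 2 and, per dose contrast and direction, the 2 of the 150 with the smallest p in the blocked fit. Marker lists by gene symbol could not be applied.

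The labels do not say that a replicate number pairs pools. With group means subtracted, pools of 1 number in different groups correlated across genes at a mean r of 0.78 (lowest 0.67), and pools that shared neither number nor group at an r of at most 0.76. The lowest r of a pair was above the threshold of 0.1, and the numbers were taken to pair the pools, from the data and not from the labels. The highest r of pools that shared neither (0.76) also exceeded the lowest r of a pair (0.67). The threshold therefore cannot by itself show that a number pairs pools, and the pairing is an assumption of the blocked fit. No pools held identical values (at most 2.99% of genes equal).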

Additional observations from a re-analysis of the deposited data

Results flagged for a closer look

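Dixon's ratio was used to look for 1 outlying value among 6 in 57 sets of values. It was over its 95% limit in 2 sets, where about 2.85 would be expected if the 6 values of each set were alike. Many sets hold levels of the 150 genes, which the rule used to split these same pools. The limit and the expected count therefore do not apply to them, and the 2 sets are given as a description. Low pool 5 had 25 of the 150 genes at 5 reads or fewer, while the other low pools had 0 to 8. Control pool 3 had 738 such genes in the whole table, while the other control pools had 418 to 530.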

How the results depend on the processing

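Without the replicate block, 0 of the 150 genes were called in each dose contrast under every pseudocount, filter, scaling and fit tried and without any single pool. For high against low, the replicate block gave 14 (share of all genes called in the same fit, 8.07%), with pseudocounts of 0.5 and 5 it gave 14 (8%) and 14 (8.35%), without a filter 14 (7.59%), with a filter of 50 (which leaves 85 of the genes) 11 (9.01%), with equal column totals 10 (6%), with quantile normalization 11 (7.87%), without the variance trend 3 (5.32%), with a robust fit 12 (7.71%) and at an adjusted p under 0.10 it gave 28 (13.4%). Without single pools or numbers it gave 2 to 30 with the block (3.14% to 9.81%). In fits without the block only single pools were left out, and the count was 0. With the 150 genes chosen again under those pseudocounts, no filter, a filter of 50, equal totals and quantile normalization it was 14, 16, 14, 21, 11 and 12, against those same shares, and with the column total as a covariate 1 (4.39%). For high against control the blocked count was 0 except 1 with a pseudocount of 5 (1.29%), 1 at an adjusted p under 0.10 (3.14%) and 1 with the genes chosen again at equal totals (0.484%), and 0 to 1 without single pools or numbers (0.112% to 1.65%). For low against control it was 0 to 6 without single pools or numbers (0% to 2.31%). The genes chosen again, the covariates, the fit without high pools 3 and 5 and the limit to genes above 5 in every pool were added after the data were seen. The cause of these shifts was not tested.

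Equal column totals shifted the median of all genes between the sets of pools by 0.60, moved the median of the 150 genes to 2.79 and let 5688 genes meet the rule. Without single replicate numbers 2434 to 3078 genes met it. Of the 150 genes, 124 to 145 were shared under the other pseudocounts and scalings and no filter, and 85 with a filter of 50. The median dose differences moved by less than their SD over the numbers under the pseudocounts, scalings and left-out numbers. That limit is wide. The SD was 0.36, 0.28 and 0.39 for high against control, low against control and high against low, at medians of -0.13, 0.22 and -0.32. A median could thus change sign and stay within it. With the covariates the median of high against control was 0.09 (near-empty genes) and -0.07 (column total), and that of low against control 0.05 and 0.06. That of high against control was 0.007 under quantile normalization, and without single numbers the medians ran from -0.26 to 0.004 for high against control, 0.18 to 0.33 for low against control and -0.39 to -0.17 for high against low. Of 276 alternative values for genes printed by identifier, 4 were reversed, all in fits without the block that left out 1 pool. Such fits are no longer balanced over the numbers. For high against low, ENSGACG00000016700 had -0.048 without high pool 1 and -0.061 without low pool 5, and ENSGACG00000015193 had -0.055 and -0.075. Without single pools these genes ran from -0.061 to 0.57 and from -0.075 to 0.56. With 6 pools a group and the spread between numbers in the residual, only large changes could be called without the block.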
